A study of Homo sapiens with 6 samples.

Results

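RMRP, RPPH1, RN7SK, RN7SL1 and TERC are structured noncoding RNAs that end without a poly(A) tail or carry one only briefly while they mature. They were taken by symbol from the 6 tables of HEK293T RNA-seq, and a symbol with several rows was to be represented by the row with the highest mean level. RMRP, RPPH1 and TERC had 1 row each, so 3 of the 5 RNAs were measured among 23204 gene symbols in 39618 rows. RN7SK and RN7SL1 were not analysed here.

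HEK293T is a human embryonic kidney line, and each of the 6 groups was 1 library. For 4 libraries, cells received 5 µg of plasmid, and after 32 h those positive for GFP were sorted by flow cytometry. These plasmids encoded GFP alone, GFP-WT DDX3X, GFP-DDX3X T275M or GFP-DDX3X G302V, and the cells kept their own DDX3X gene. The other 2 libraries came from cells treated for 48 h with control siRNA or DDX3X siRNA, and the labels give no sort for them. DDX3X is an RNA helicase that acts in translation, and T275M and G302V are cancer-associated forms of it. The study's text names G325E, not T275M, as the second mutant of its RNA-seq, and the label was followed here, so which of the 2 forms the library labelled T275M holds is uncertain wherever its values are given. The RNA was prepared with a TruSeq RNA v2 kit, a chemistry that captures RNA on oligo(dT) beads, so that an RNA without a tail is expected to be depleted from every library. With 1 library per group there was no replicate error, and intervals below cover counting error only.

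RNA polymerase III transcribes RMRP, RPPH1, RN7SK and RN7SL1 and stops at a short run of T in the coding strand. RMRP is the RNA of RNase MRP, which processes the precursor of ribosomal RNA, and RPPH1 is the RNA of RNase P, which trims the 5′ ends of precursor tRNAs. RN7SK holds the elongation factor P-TEFb in an inactive complex, and RN7SL1 is the scaffold of the signal recognition particle. TERC is different in origin: RNA polymerase II transcribes it, its 3′ end is trimmed after a short-lived oligo(A) tail is added, and it carries the template from which telomerase copies telomere repeats.

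The 3′ ends of the 3 measured RNAs are shown because a poly(A) capture acts there. Each line holds the last 40 bases of the deposited row and the next 40 bases of the GRCh37 genome, all on the minus strand, at chr9:35657708-35657787 for RMRP, chr14:20811190-20811269 for RPPH1 and chr3:169482358-169482437 for TERC. Capitals mark the run of T at the end of RMRP and RPPH1, and bases 6 to 4 from the row's end in TERC, the ACA of its H/ACA box.
RMRP: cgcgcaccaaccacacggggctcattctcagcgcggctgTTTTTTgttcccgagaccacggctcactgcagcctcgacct
RPPH1: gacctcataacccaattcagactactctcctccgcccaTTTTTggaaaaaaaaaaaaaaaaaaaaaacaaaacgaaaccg
TERC: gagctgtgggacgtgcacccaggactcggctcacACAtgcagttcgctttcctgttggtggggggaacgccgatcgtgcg

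Both polymerase III rows ended inside their T run, of 6 bases in RMRP and 5 bases in RPPH1. A run of 4 or more T in such a window was common on the sense strand, in 42.73% of 3520 single-exon rows, and TERC had at most 3. Beyond the RPPH1 row the genome holds a run of 22 A, where 1.529% of 3531 rows had a run of 15 or more A in the next 40 bases. The longest A run in that window was 1 base for RMRP and 2 bases for TERC.

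Inside TERC, the first 100 bases and the longest internal A run are shown, at chr3:169482749-169482848 and chr3:169482646-169482705 on the minus strand of GRCh37. Capitals mark CCCTAA, which lies in the telomere template, in the first line, and the run of A in the second.
TERC first 100 bases: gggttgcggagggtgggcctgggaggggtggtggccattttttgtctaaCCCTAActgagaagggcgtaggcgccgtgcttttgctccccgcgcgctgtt
TERC longest A run: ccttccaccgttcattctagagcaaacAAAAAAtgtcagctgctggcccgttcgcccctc
The letters CCCTAA occurred in the first 100 bases of 1.196% of 2257 rows on the sense strand. The A run of TERC was 6 bases long from base 171 of the row, against 3 bases in RMRP, 2 bases in RPPH1 and a median of 4 over 174 single-exon rows of 200 to 500 bases. All 3 RNAs were rich in G and C, at 63.1% for RMRP, 63.6% for RPPH1 and 67.4% for TERC beside a median of 57.3% over those rows. Their predicted folding energies per 100 bases were -38.7 kcal/mol for RMRP, -49.0 kcal/mol for RPPH1 and -48.1 kcal/mol for TERC, beside a median of -35.9 kcal/mol. Of the 174 rows, 34.48% lay at or below the value of RMRP, 4.598% at or below that of RPPH1 and 5.172% at or below that of TERC.

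The RPKM values, reads per kilobase of row per 1000000 reads, stepped in whole reads, and the depth recovered from these steps was 43720000 to 67520000 reads in 5 libraries and 180870000 reads in the DDX3X siRNA library. All of the 4991 to 5700 low rows checked per library lay within 0.1 of a whole read. DDX3X itself was at 119 RPKM with GFP, 1906 to 3279 RPKM with the DDX3X plasmids, 107 RPKM with control siRNA and 31.3 RPKM with DDX3X siRNA, in the direction of each label. The labels call the cells neuronal, yet 6 of 12 neuronal markers stayed under 1 RPKM in every library and ELAVL4 was at 0. The neurofilament genes NEFM and NEFL were at means of 578 and 128 RPKM, and SNAP25 was past 2-fold with WT DDX3X over GFP, at 1.38 against 0.115 RPKM. Of 5 genes listed as epithelial and kidney lineage markers, KRT18 was at a mean of 41.1 RPKM and PAX8 at 0.00215 RPKM. VIM, on that list but not particular to those lineages, was at a mean of 253 RPKM.

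All 3 RNAs were found in every library, at low levels. RMRP had 95 reads over the 6 libraries, RPPH1 had 111 and TERC had 269. RMRP was under 1 RPKM in all 6 libraries, RPPH1 reached 1 RPKM in 1 library and TERC in 4 of 6. Together the 3 RNAs took 0.735 to 2.14 RPM, reads per 1000000 reads. These are levels of what the capture kept, and cannot be read as amounts in the cell. In bulk samples, fewer cells with an RNA and less of it per cell cannot be told apart.

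RMRP, the RNase MRP RNA, had 14 reads with GFP, 13 with WT DDX3X, 5 with T275M, 3 with G302V, 18 with control siRNA and 42 with DDX3X siRNA. On its 268-base row these were 0.952, 0.773, 0.392, 0.256, 0.995 and 0.867 RPKM in the same order. The GFP, WT DDX3X and both siRNA libraries lay close together, and both mutant libraries lay lowest. From highest to lowest, no library differed from the next beyond counting error, the widest step being WT DDX3X over T275M at a ratio of 1.97 (95% interval 0.659 to 7.06). In the G302V library 3 reads, 0.256 RPKM with an interval of 0.0528 to 0.748, equal the limit set here for a count of 0.

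RPPH1, the RNase P RNA, had 9 reads with GFP, 24 with WT DDX3X, 3 with T275M, 6 with G302V, 20 with control siRNA and 49 with DDX3X siRNA. On its 341-base row these were 0.481, 1.12, 0.185, 0.403, 0.869 and 0.795 RPKM. WT DDX3X held the highest value and T275M the lowest, 6.06-fold apart, while the 2 siRNA libraries sat just below WT DDX3X. Here too no step between neighbours in the order left out a ratio of 1, and the step from G302V to T275M was 2.18 (0.465 to 13.4). The 3 reads with T275M again equal the limit set here for a count of 0.

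TERC, the telomerase RNA, had 56 reads with GFP, 97 with WT DDX3X, 29 with T275M, 29 with G302V, 16 with control siRNA and 42 with DDX3X siRNA. On its 451-base row these were 2.26, 3.43, 1.35, 1.47, 0.525 and 0.515 RPKM. All 4 plasmid libraries lay above both siRNA libraries. Along this order, 2 steps left out a ratio of 1: WT DDX3X over GFP at 1.51 (1.08 to 2.14) and T275M over control siRNA at 2.57 (1.35 to 5.07). G302V and T275M differed by a ratio of 1.09 (0.627 to 1.89), and the siRNA libraries by 1.02 (0.536 to 1.85).

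**Figure D1:**
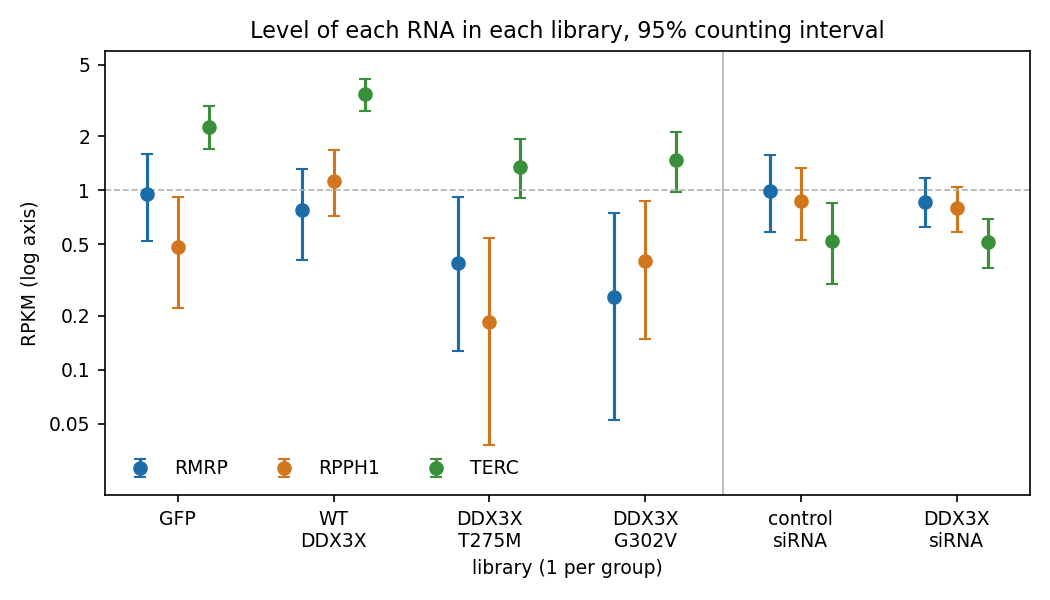
RPKM of RMRP, RPPH1 and TERC on a log axis in each of the 6 libraries, 1 per group, with exact Poisson 95% intervals of the reads; the dashed line is 1 RPKM and the grey line parts plasmid from siRNA libraries. TERC lies between 1.35 and 3.43 RPKM in the plasmid libraries and at 0.525 and 0.515 RPKM in the siRNA libraries, while RMRP and RPPH1 show no such gap.

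The order of the 3 RNAs within a library turned over between the plasmid and the siRNA libraries. By RPKM, TERC was the highest of the 3 in each plasmid library and the lowest in both siRNA libraries, where RMRP was highest. As a share of the reads of the 3 RNAs, which no scaling of the library can move, TERC took 70.9% with GFP (Wilson 95% interval 60.1 to 79.8), 72.4% with WT DDX3X (64.3 to 79.3), 78.4% with T275M (62.8 to 88.6) and 76.3% with G302V (60.8 to 87.0). With control siRNA the share was 29.6% (19.1 to 42.8), and with DDX3X siRNA it was 31.6% (24.3 to 39.9). The 4 plasmid intervals overlapped each other and lay wholly above both siRNA intervals. This share was chosen after the values were seen and is given as a description.

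**Figure D2:**
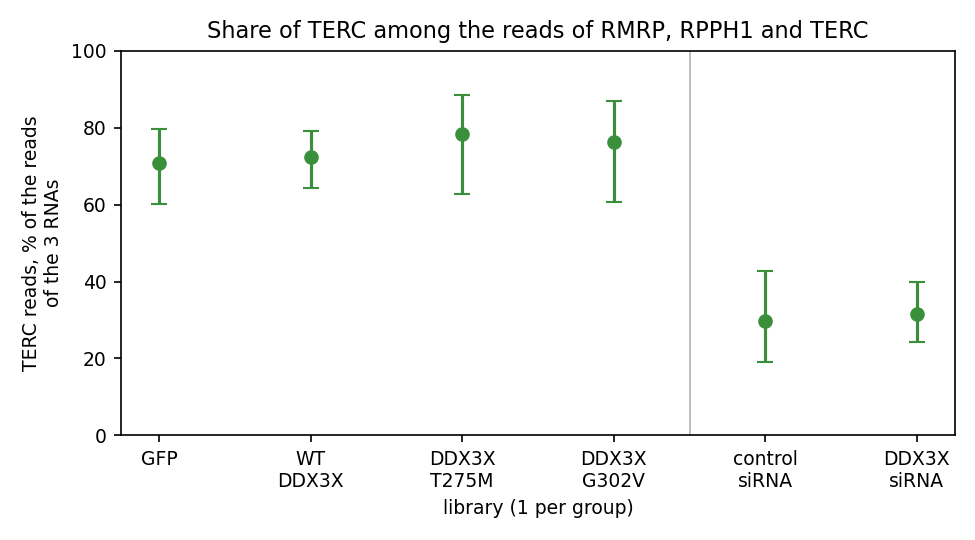
TERC reads as a percent of the reads of RMRP, RPPH1 and TERC in each library, 1 per group, with Wilson 95% intervals; the grey line parts plasmid from siRNA libraries. The share is 70.9% to 78.4% in the plasmid libraries and 29.6% to 31.6% in the siRNA libraries.

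The knockdown comparison asks whether less DDX3X goes with other levels of these RNAs. With DDX3X siRNA over control siRNA, the RPKM ratio was 0.871 (exact 95% interval 0.491 to 1.61) for RMRP, 0.915 (0.534 to 1.62) for RPPH1 and 0.980 (0.540 to 1.87) for TERC. Summed over the RNAs, the RPM had a ratio of 0.920 (0.665 to 1.29). On the log2(RPKM + 1) scale, which understates differences at low levels, the 3 ratios were -0.10, -0.06 and -0.01. No member was past 2-fold on that scale, where 0.110% of 12694 genes with at least 1 RPKM and 10 reads in a library were, and none of the 3 members passed that filter here. All 3 lay under 1 RPKM with control siRNA, so none could fall 2-fold on that scale. The counting interval left out 1 for 0 of the 3 members and for 62.3% of genes with 10 or more reads in a library. Genes with many more reads than these RNAs have narrower intervals, which can raise such a share in every comparison. The intervals still allow a ratio as low as 0.491 for RMRP and as high as 1.87 for TERC.

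WT DDX3X against GFP asks what the excess helicase goes with. TERC had a ratio of 1.51 (1.08 to 2.14) and RPPH1 a ratio of 2.33 (1.05 to 5.70), while RMRP had 0.812 (0.351 to 1.86). The interval left out 1 for 2 of 3 members, beside 56.0% of genes. On the log2(RPKM + 1) scale the ratios were 0.44 for TERC, 0.52 for RPPH1 and -0.14 for RMRP, none past 2-fold, beside 0.248% of 12915 genes. RPPH1 and TERC passed the filter here and RMRP did not. The summed RPM had a ratio of 1.48 (1.12 to 1.98).

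Both mutants are set against GFP and against WT DDX3X, and these 5 plasmid comparisons share the GFP or the WT DDX3X library. With T275M over GFP the ratio was 0.412 (0.116 to 1.21) for RMRP, 0.384 (0.0670 to 1.54) for RPPH1 and 0.597 (0.368 to 0.951) for TERC. With G302V over GFP it was 0.269 (0.0495 to 0.963) for RMRP, 0.836 (0.245 to 2.63) for RPPH1 and 0.650 (0.400 to 1.04) for TERC. All 6 ratios lay below 1, but each RNA had at most 14 reads in these libraries except TERC. RPPH1 had under 10 reads in each of these libraries, so 2 members met the rule of 10 reads used for the genes. Of these, the interval left out 1 for TERC alone with T275M, beside 60.4% of genes. With G302V it left out 1 for RMRP alone, beside 53.6% of genes. On the log2(RPKM + 1) scale 0 members were past 2-fold against GFP, beside 0.372% of 12912 genes for T275M and 0.305% of 12775 genes for G302V. TERC alone passed the filter in both comparisons. RMRP and RPPH1, at 0.952 and 0.481 RPKM with GFP, could not fall 2-fold on that scale even without any reads.

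Against WT DDX3X the mutant libraries were lower in all 3 RNAs. T275M had a ratio of 0.507 (0.142 to 1.52) for RMRP, 0.165 (0.0318 to 0.543) for RPPH1 and 0.394 (0.251 to 0.603) for TERC. G302V had a ratio of 0.331 (0.0605 to 1.21) for RMRP, 0.359 (0.120 to 0.901) for RPPH1 and 0.429 (0.273 to 0.655) for TERC. In both comparisons the intervals of RPPH1 and TERC left out 1 and that of RMRP did not, 2 of 3 members beside 37.9% of genes for T275M and 54.3% for G302V. Nevertheless no member was past 2-fold on the log2(RPKM + 1) scale, where TERC came nearest at -0.91 with T275M and -0.84 with G302V, beside 0.0771% of 12973 genes and 0.185% of 12967 genes. RMRP did not pass the filter, and at 0.773 RPKM with WT DDX3X it could not fall 2-fold on that scale. RPPH1, at 1.12 RPKM with WT DDX3X, had little room to do so. The summed RPM had ratios of 0.364 (0.246 to 0.528) for T275M and 0.407 (0.276 to 0.587) for G302V. The median log2(RPKM + 1) ratio of the 3 RNAs was -0.84 and -0.60 in these comparisons, beside medians of 0.0046 and -0.03 over the genes.

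**Figure D3:**
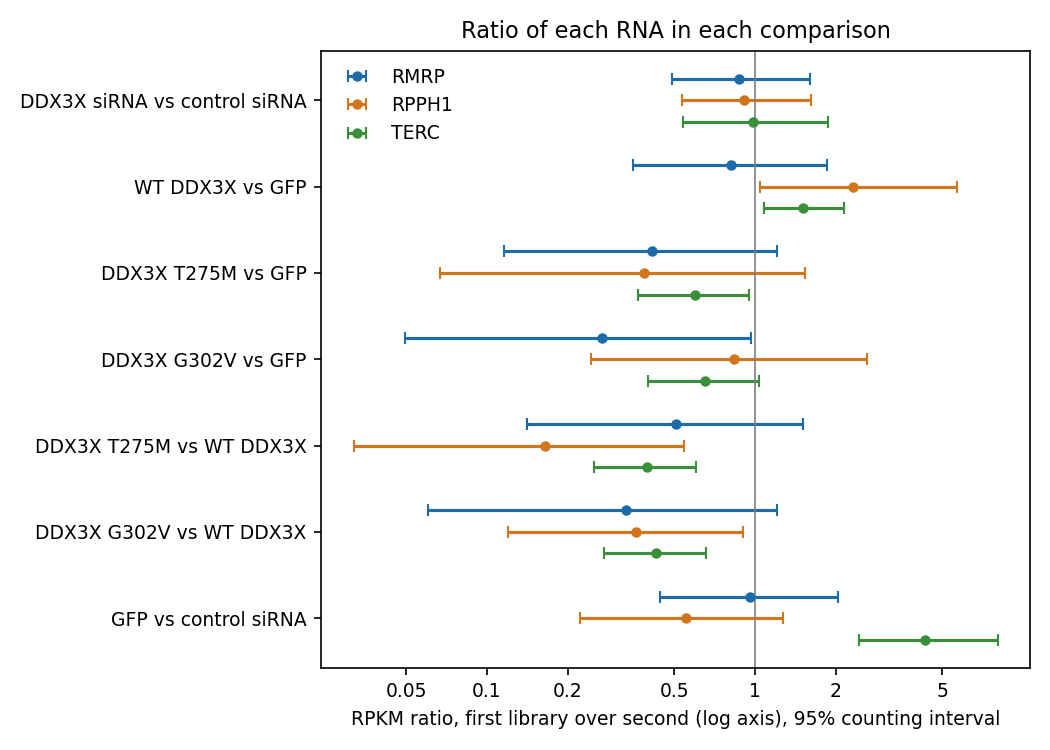
RPKM ratio of RMRP, RPPH1 and TERC, first library over second on a log axis, in the 7 comparisons, with exact 95% counting intervals. In the knockdown comparison all 3 ratios are 0.871 to 0.980, against WT DDX3X the mutants are at 0.165 to 0.507, and TERC in GFP over control siRNA stands at 4.31.

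GFP and control siRNA are the 2 control libraries, and they differ in transfection, time and sorting, which cannot be told apart. TERC was 4.31-fold higher with GFP (2.44 to 8.05), or 1.10 on the log2(RPKM + 1) scale. Over the 7 comparisons it was the only one of 21 ratios past 2-fold on that scale, and 9 of the 21 passed the filter. RMRP had a ratio of 0.957 (0.441 to 2.04) and RPPH1 a ratio of 0.554 (0.222 to 1.27). TERC alone of the 3 members passed the filter, and it was past 2-fold, beside 64 (0.503%) of the 12730 genes that passed. Among rows of 200 bases or longer, to which TERC belongs, it was 10 (0.0812%) of 12310 genes, so most genes past 2-fold here had shorter rows. The interval left out 1 for the same member, beside 55.8% of genes. Across all libraries, the lowest plasmid value of TERC was 2.57 times the highest siRNA value, and 2.36 times after median-ratio scaling. A gap of at least 2-fold in this direction was found for 0.220% of 16817 genes. For RMRP and RPPH1 the plasmid and siRNA values overlapped.

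Other RNAs without a poly(A) tail were set beside these. Of 35 listed small nuclear, vault, Y and related RNAs, 15 were measured, with a median of 0.328 RPKM over the mean levels. This median is the value of RNU5E-1, and it also covers RNU86 and BCYRN1, all of which are set aside below. Of the 15, 10 stayed under 1 RPKM in every library, and the vault RNA VTRNA2-1 and the Y RNAs RNY4 and RNY5 were at 0 throughout. RMRP, RPPH1 and TERC, at mean levels of 0.706, 0.642 and 1.59 RPKM, thus fell among the tailless RNAs that were captured. RNU86, at 3195 RPKM, was set aside because its 55-base row lies inside an exon of the ribosomal protein gene RPL3 on the same strand. BCYRN1 and RNU5E-1 were also left out, since the coordinates of the first do not match its stated length and the second shares reads with RNU5D-1.

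The 12 other RNAs then summed to 0.729 RPM with GFP (0.521 to 0.993), 0.861 with WT DDX3X (0.647 to 1.12), 0.778 with T275M (0.548 to 1.07) and 0.686 with G302V (0.463 to 0.980). They summed to 0.430 with control siRNA (0.288 to 0.617) and 0.420 with DDX3X siRNA (0.331 to 0.526). Each plasmid value was above both siRNA values, although neighbouring intervals overlapped. This order depended on leaving out BCYRN1 and RNU5E-1. With both kept, the sums were 1.276 RPM with GFP, 1.658 with WT DDX3X, 1.325 with T275M and 1.121 with G302V. Control siRNA was then at 1.155 and DDX3X siRNA at 1.100 RPM, so G302V lay below control siRNA. The vault RNA VTRNA1-3 alone held 41.4% to 62.2% of the reads of the 12 RNAs in each library. It was at 4.35 to 5.50 RPKM in the plasmid libraries and 2.02 and 2.39 RPKM in the siRNA libraries. Without it, a sum added after the data were seen, the other 11 RNAs summed to 0.346 RPM with GFP (0.209 to 0.541), 0.414 with WT DDX3X (0.271 to 0.607), 0.294 with T275M (0.161 to 0.494) and 0.274 with G302V (0.142 to 0.480). With control siRNA they summed to 0.252 RPM (0.147 to 0.403) and with DDX3X siRNA to 0.210 RPM (0.149 to 0.288), so that the values of both mutants and of control siRNA lay close together and the gap of the sum rested largely on VTRNA1-3. RMRP and RPPH1 together had no such gap. They were at 0.419 RPM with GFP, 0.590 with WT DDX3X, 0.168 with T275M and 0.206 with G302V, beside 0.563 and 0.503 in the siRNA libraries. The values of the mutants rest on 8 reads with T275M and 9 with G302V. Whether the capture of tailless RNA differed between the libraries was not tested.

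**Figure D4:**
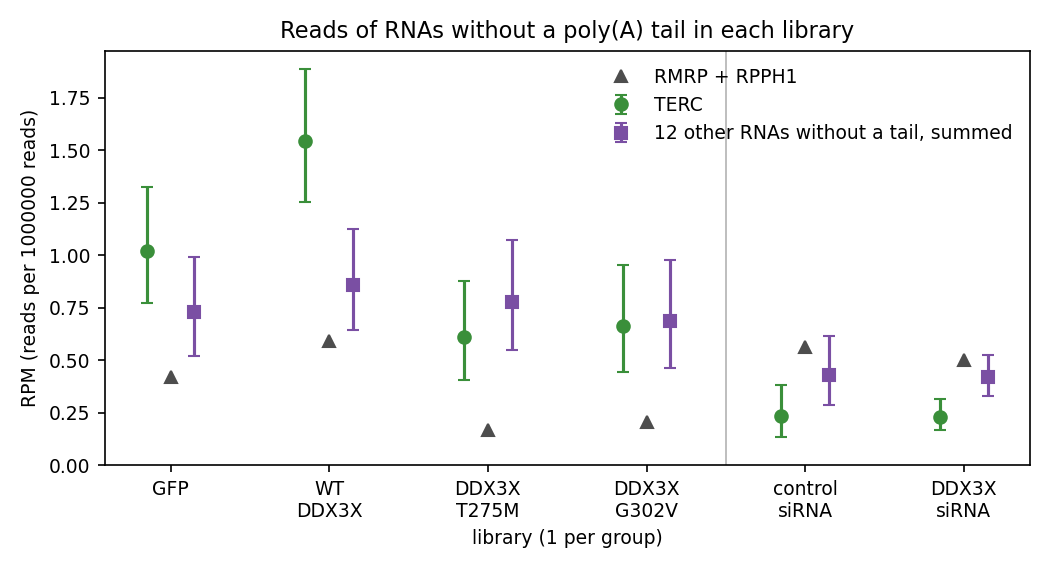
Reads per 1000000 reads (RPM) of TERC, of RMRP and RPPH1 together, and of 12 other RNAs without a tail in each library, 1 per group, with exact Poisson 95% intervals for TERC and the 12 RNAs. The 12 RNAs sum to 0.686 to 0.861 in the plasmid libraries and 0.420 to 0.430 in the siRNA libraries, with 41.4% to 62.2% of those reads from VTRNA1-3, and RMRP with RPPH1 is lowest in the T275M and G302V libraries.

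Transcripts of the proteins that bind these RNAs had far higher RPKM. The capture keeps polyadenylated mRNAs and is expected to deplete RNAs without a tail, so these values do not compare amounts in the cell. For RNase MRP and RNase P, which share most of their proteins, 10 of 11 listed genes were measured, from POP1 at a mean of 10.8 RPKM to RPP21 at 58.8 and POP7 at 65.9 RPKM. The 10 telomerase genes ran from TERT, the reverse transcriptase, at 3.41 RPKM, to DKC1, the H/ACA protein dyskerin, at 109 RPKM and its partner NHP2 at 384 RPKM. TERC, at a mean of 1.59 RPKM, lay below TERT in 5 of 6 libraries, and with WT DDX3X it was at 3.43 RPKM beside 3.41 RPKM for TERT. The 7 genes of the 7SK particle and P-TEFb ran from HEXIM2 at 3.06 RPKM to MEPCE at 35.1 and LARP7 at 39.7 RPKM. The 8 genes of the signal recognition particle and its receptor ran from SRP19 at 37.2 RPKM to SRP14 at 146 and SRP9 at 259 RPKM.

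RNA polymerase III and its factors, 31 of 31 genes measured, had a median of 24.6 RPKM over their mean levels, with BDP1, a subunit of TFIIIB, lowest at 7.04 RPKM. GTF3C6, a subunit of TFIIIC, was at 125 RPKM and SSB, the La protein that binds the U-rich ends of polymerase III transcripts, at 270 RPKM. The polyadenylated reference mRNAs, 10 of 10 measured, had a median of 320 RPKM, from TBP at 24.6 RPKM to GAPDH at 2050 and EEF1A1 at 2555 RPKM. In none of these protein and mRNA lists was a gene past 2-fold in any of the 7 comparisons. TERT had 4.23 RPKM with GFP, 3.41 with WT DDX3X, 3.61 with T275M, 3.39 with G302V, 2.53 with control siRNA and 3.31 with DDX3X siRNA. The value with DDX3X siRNA lay just under that with G302V, so TERT had no gap between plasmid and siRNA libraries like that of TERC.

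**Figure D5:**
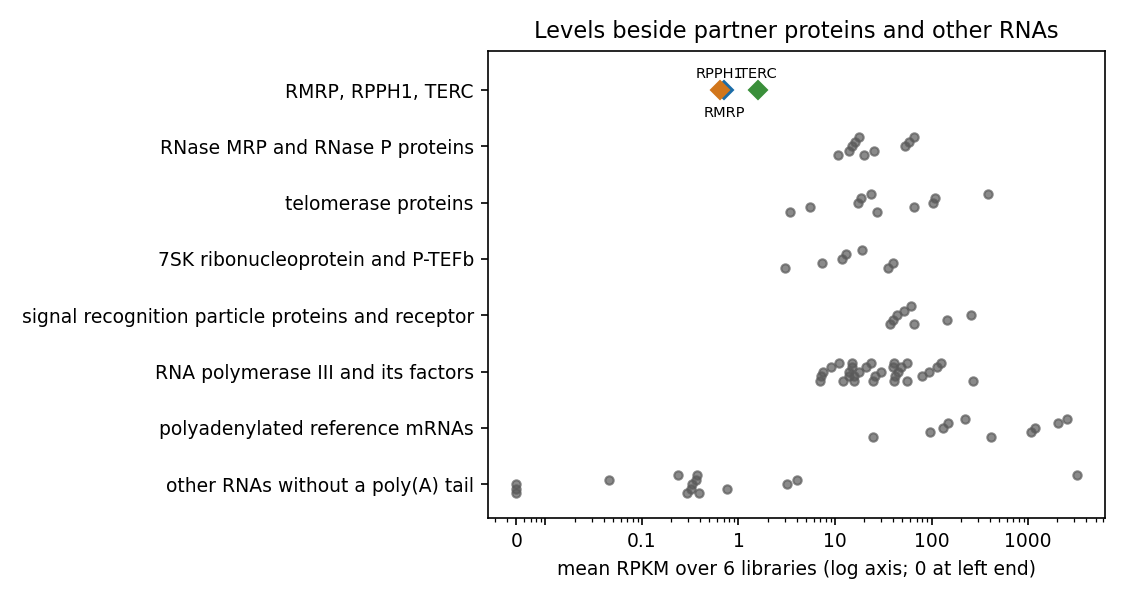
Mean RPKM over the 6 libraries on a log axis for RMRP, RPPH1 and TERC (diamonds) and for the genes of 7 lists (circles), with genes at 0 placed at the left end. The 3 RNAs lie at 0.642 to 1.59 RPKM, below every RNase MRP, RNase P and telomerase protein gene, and among the other RNAs without a tail.

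The neighbouring genes named here varied over narrower ranges than the 3 RNAs did. CCDC107, 272 bases from RMRP on the other strand, ran from 18.5 to 20.7 RPKM, a 1.12-fold range against 3.88-fold for RMRP. PARP2, which starts 204 bases from RPPH1 on the other strand, ran from 39.5 to 59.0 RPKM, where RPPH1 had a 6.06-fold range. Near TERC, ARPM1 (ACTRT3 in GENCODE), 1861 bases away on the same strand, ran from 1.28 to 1.60 RPKM. MYNN, which lies farther from TERC, ran from 4.76 to 6.68 RPKM. These were ranges of 1.25-fold and 1.40-fold against 6.66-fold for TERC. Ranges of genes with few reads are wider from counting alone. The row of RPPH1 lies wholly inside the long noncoding RNA gene ENSG00000259001 on the same strand, at chr14:20811207-20811844, so its reads cannot be assigned to the RNase P RNA alone. GENCODE places RMRP at chr9:35657751-35658014, nearly the same as the row, and TERC at chr3:169482308-169482848, with a 3′ end that runs past that of the row.

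The genes whose profile over the 6 libraries was most like that of each RNA were taken by Pearson's r of log2(RPKM + 1), as a description. For RMRP they were GAL (r = 0.977), RRS1 (r = 0.976) and TMEM171 (r = 0.974) among 7127 genes. For RPPH1 they were ZBED3 (r = 0.920), MIR4761 (r = 0.869) and LINC00116 (r = 0.860) among 4891 genes. For TERC they were MIR4258 (r = 0.970) and 2 small nucleolar RNAs, SNORD42A (r = 0.941) and SNORA51 (r = 0.935), among 839 genes with a range wide enough to compare. SNORA51, an H/ACA RNA like TERC in its 3′ fold, had 18.9 RPKM with GFP, 17.5 with WT DDX3X, 12.1 with T275M, 9.53 with G302V, 6.28 with control siRNA and 4.73 with DDX3X siRNA. SNORD42A, a box C/D RNA, had 15.9, 15.9, 11.4, 8.71, 4.94 and 6.14 RPKM in the same order. Both were higher in every plasmid library than in either siRNA library. Because both were chosen for a profile like that of TERC, this adds no support to the gap seen for TERC. The 6 points share their libraries and depths, and rows this short lie within host genes, whose reads can be counted with them.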

How the data were processed

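HEK293T RNA was measured in 6 libraries, 1 per group. The authors deposited RPKM per gene row. The submitters' processing notes name BWA 0.5.5, cutadapt and genome build hg19. Per the study's methods, trimmed reads were aligned to the genome, RefSeq, RefSeq exon pairs and AceView transcripts, the best alignment was kept and duplicates were removed, which can lower the counts of short, abundant rows. Reads per gene were then divided by gene length and total reads, a value the methods call FPKM and the file headers RPKM. How reads shared by overlapping genes were counted is not given in the sources used here. Members and lists were chosen with earlier results of these data known. Each library's depth (43720000 to 180870000 reads) was recovered from the whole-read steps of low RPKM values. Groups came from the labels. Differences were log2 ratios of RPKM with a pseudocount of 1, over genes with at least 1 RPKM and 10 reads in a library, and a gene was past the threshold at 2-fold. No p-value was possible with 1 library per group, and intervals are exact or Wilson intervals at 95% for counting error only. The limit for a count of 0 was set at 3 reads, 0.0166 to 0.0686 RPM (reads per 1000000 reads), which is not the upper end of the exact interval. Medians of the members cover all 3 measured RNAs, also those under the filter.

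Genes named were the members, DDX3X, list genes past 2-fold or else the 2 highest and the lowest of a list, and the 3 genes of most similar pattern per member. Those had at least 1 RPKM and 10 reads in every library and a log2 range at least 0.5 times that of the member. BCYRN1, RNU5D-1, RNU5E-1 and the neighbouring genes were named after their values were seen. Sequences were read from GRCh37 with GENCODE 44, and folding energies came from ViennaRNA 2.7.2. Scripts used Python 3.11.15, pandas 2.3.3, numpy 2.4.6, scipy 1.17.1 and statsmodels 0.14.6, and were checked on simulated data. Pseudocounts of 0.1 and 10, a 1.5-fold threshold, median-ratio scaling, summed rows, no filter and rows of at least 200 bases were tried, and a sum without VTRNA1-3 was added after the data were seen.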

Additional observations from a re-analysis of the deposited data

How the results depend on the processing

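The smaller the pseudocount, the more the low RNAs weighed. With a pseudocount of 0.1, the members past 2-fold were 1 for WT DDX3X against GFP and 2 each for T275M and G302V against WT DDX3X, where a pseudocount of 1 gave 0, and the median log2 ratio of the members became -1.03 for T275M against GFP, -1.28 for T275M against WT DDX3X and -1.28 for G302V against WT DDX3X. Genes past 2-fold at that pseudocount were 1.05% of 12915 for WT DDX3X against GFP. They were 0.193% of 12973 for T275M and 0.864% of 12967 for G302V against WT DDX3X. In each of these comparisons 2 members passed the filter. For GFP against control siRNA the share was 0.943% of 12730 genes, and 1 member, the only one to pass the filter, was past 2-fold at both pseudocounts. With a pseudocount of 10, TERC was no longer past 2-fold for GFP against control siRNA (0 members, beside 0.165% of 12730 genes). The median for T275M against WT DDX3X was then -0.13. A 1.5-fold threshold took in 2 members each for T275M and G302V against WT DDX3X, beside 0.347% of 12973 genes and 1.76% of 12967 genes. Of the log2 ratios of single RNAs, 9 of 21 at a pseudocount of 0.1 lay outside the counting interval computed at a pseudocount of 1. At a pseudocount of 10 it was 4 of 21. The pseudocount changes the scale itself, so these counts do not set the moves against counting error. Median-ratio scaling, summed rows, no filter on low values and rows of at least 200 bases changed no count of members past 2-fold, and moved no median by more than counting error. Under the scaling the log2 ratio of TERC with DDX3X siRNA went from -0.01 to 0.02. No paired analysis was possible because each group was 1 library, and for the same reason no library could be left out. Depth limits RMRP and RPPH1 most, with 3 to 24 reads in each plasmid library.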
